A study of Arabidopsis thaliana with 8 samples.

Results

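Among the transcripts measured in wild-type Arabidopsis before and after 1 d at high CO2, 90 were bright at normal CO2 and had a mean signal after that day that was less than doubled and not halved. They are 90 of 3439 probes on each array, and each stands for a different gene. The selection began with the 692 probes annotated to 1 gene, of which 574 had a signal above 0 on all 8 arrays. Each array was divided by its median over all probes, so a signal is a multiple of the array median. The top 20% of the 574 by mean signal over the normal CO2 arrays, 115 probes, were kept. Of these, 98 had a ratio of group means (high over normal) above 0.5 and below 2, while 9 lay at or above 2 and 8 at or below 0.5. From the 98, 8 well-known genes of photosynthesis and plastid metabolism were left out by name. The members were thus selected on the normal CO2 signal and the high over normal ratio, and both are given here as descriptions, with no test.

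The plants were the ecotype Columbia 0, with 4 arrays of plants held for 1 d in air with 1% CO2 by volume (high CO2) and 4 arrays of plants at normal CO2. The normal CO2 arrays are labelled 0 d, with no normal CO2 group of 1 d, so the gas, the transfer and the further day cannot be told apart. Neither tissue nor plant age is given in the sources used here, and nothing says that arrays of a group held RNA of separate plants. The array medians ran from 0.212 to 0.28 on the deposited scale, which ends at 100, and no member reached that limit. Arrays 1 and 2 of a group were closer to each other than to arrays 3 and 4 (correlations across probes of 0.887 to 0.962, against 0.852 to 0.899 between the sets). No label explains these sets. Results are given in each set where they differ, on the scale of array medians unless another is named, since the scale itself shifts some of these differences. Of 25 genes listed as markers of green leaf tissue, 3 (PSAN, LHB1B2 and PSBW) were on single-gene probes and none was a member. Their summed signal was 152 to 222 array medians at high CO2 and 101 to 159 at normal CO2. PSBW was the brightest of them, with a normal CO2 mean of 102.3 and a ratio of 1.7. PSAN (mean 18.3, ratio 0.418) and LHB1B2 (mean 9.49, ratio 0.929) went the other way. None of the 11 root, 11 seed storage and 6 pollen markers listed was on such a probe, so the tissue could not be checked further.

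At high CO2, rubisco, the enzyme that fixes CO2 in the chloroplast, meets more CO2 relative to O2, and less carbon passes into photorespiration. Many nuclear genes for chloroplast proteins respond to the sugar, redox and light state of the leaf. Transcripts whose signal stays close to that of the controls are of interest in such an experiment because they are candidates for internal references and mark functions whose mRNA does not follow the treatment. The brightness of a spot also depends on its probe, so the rank of a member is a rank of signals and not of transcript amounts. In RNA of whole tissue, fewer cells that express a gene and less RNA per cell cannot be told apart.

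The thresholds cut through a continuous range. The members of lowest signal were LAS, at 2.83 times the array median, and AT3G52070, at 2.82. The next single-gene probes below were SBPASE, of the Calvin cycle, at 2.82, and AT2G04790, at 2.79. At the lower bound of the ratio, LPA19 (0.505) and AT-HF (0.529) were inside, while AT1G02020 (0.492) and AT2G46910, which rounds to 0.5, were outside. At the upper bound AT3G09850 (1.92) and AT5G52810 (1.86) were inside, while HEMA3 (2.03) and AT3G57120 (2.09) were outside. Of the 115 bright probes 85.2% had a ratio inside the bounds, and of the 459 single-gene probes below the signal threshold 78% did.

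**Figure D1:**
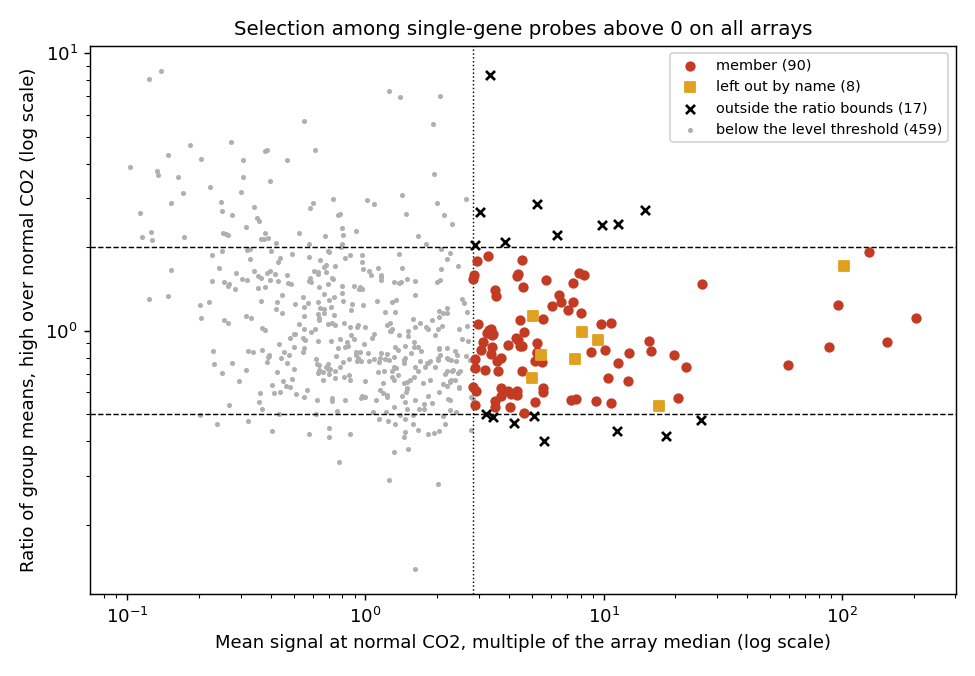
Each point is 1 of the 574 single-gene probes, with its mean signal over the 4 normal CO2 arrays on the x axis (multiple of the array median, log scale) and the ratio of group means, high over normal CO2, on the y axis (log scale); dashed lines mark ratios of 0.5 and 2 and the dotted line the signal threshold. The 90 members (circles) fill the range between the bounds, and 6 of them lie far to the right, at 59.5 or more.

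Normal CO2 signals of the members ran from 2.82 to 205.2 array medians, with a median of 4.59. They thinned out towards the top: 47 lay under 5, 24 between 5 and 10, 13 between 10 and 26, and 6 from 59.5 upward, with none between 26 and 59.5. Of the first 10 at normal CO2, 9 were also among the first 10 at high CO2, a count that the bounds on the ratio largely fix. Over all 90 the signals at high and normal CO2 had a Spearman correlation of 0.821, a description across probes of the same arrays. Of the 90, 54 stayed among the top 115 single-gene probes on every one of the 8 arrays, and 69 were among the top 115 by their high CO2 mean.

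The first in rank, AT4G31530, had signals of 270.9, 251.7, 190.1 and 197.3 array medians on high CO2 arrays 1 to 4 and of 233.7, 216.8, 184.7 and 185.6 on normal CO2 arrays 1 to 4. The means were 227.5 ± 39.9 at high CO2 and 205.2 ± 24.2 at normal CO2 (SD, n = 4 each). Its groups overlapped, the ratio was 1.11, and the fitted log2 fold change was 0.02 with a 95% interval of -0.32 to 0.37. AT2G27290, the second, had 159, 155.4, 120.2 and 128.1 at high CO2, against 158.1, 150.9, 150.9 and 156.9 at normal CO2. High CO2 arrays 3 and 4 were the lowest on this scale only. As deposited the high CO2 mean was 33.9 ± 0.783 and the normal CO2 mean 37 ± 3.1 (SD, n = 4 each), and the fit gave a log2 fold change of -0.44 in arrays 1 and 2 and 0.13 in arrays 3 and 4. The gene table gives both genes by identifier alone, as it does for most of the highest ranks.

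AT3G09850, at rank 3 at normal CO2, was first at high CO2. Its signals were 290.9, 282.7, 205.5 and 220.7 at high CO2, against 83.1, 88.3, 166.9 and 181.4 at normal CO2, so the groups did not overlap, with means of 250.0 ± 43.1 and 129.9 ± 51.5 in the same order (SD, n = 4 each). The ratio of 1.92 was the highest of all members and combined 3.35 in arrays 1 and 2 with 1.22 in arrays 3 and 4. AT4G17070 had 144.9, 124.8, 106 and 102.4 at high CO2 and 104.2, 78.6, 100.6 and 102.6 at normal CO2. Its ratio was 1.24 here and 0.947 after quantile normalization, so its direction depends on the scaling. AT1G62250 had 98.5, 101.4, 52.4 and 57.1 at high CO2, against 96.6, 91.4, 81.4 and 84.4 at normal CO2, and its high CO2 arrays 3 and 4 lay below all others.

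From the sixth place on, named genes begin. CUTA had 48.6, 55.7, 34.6 and 40 array medians at high CO2, against 55.5, 52.1, 62.8 and 67.5 at normal CO2. Arrays 1 and 2 gave a ratio of 0.969 and arrays 3 and 4 one of 0.572, but 0.638 and 0.649 after quantile normalization, so the sets of CUTA differed by scale. The members of rank 8 to 15 had ratios of 0.57 to 0.919, all below 1. In this stretch AT2G40980 had 15, 14.7, 8.55 and 8.77 at high CO2, against 22.8, 22.6, 18.4 and 18.6 at normal CO2. The groups did not overlap, the ratio was 0.57 on this scale and 0.475 after quantile normalization, where it leaves the bounds. AT4G00870 (0.66), AT4G39690 (0.762) and AT1G21660 (0.83) also had no overlap between groups, whereas AT4G27390 (0.815) and AT4G31470 (0.919) did.

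**Figure D2:**
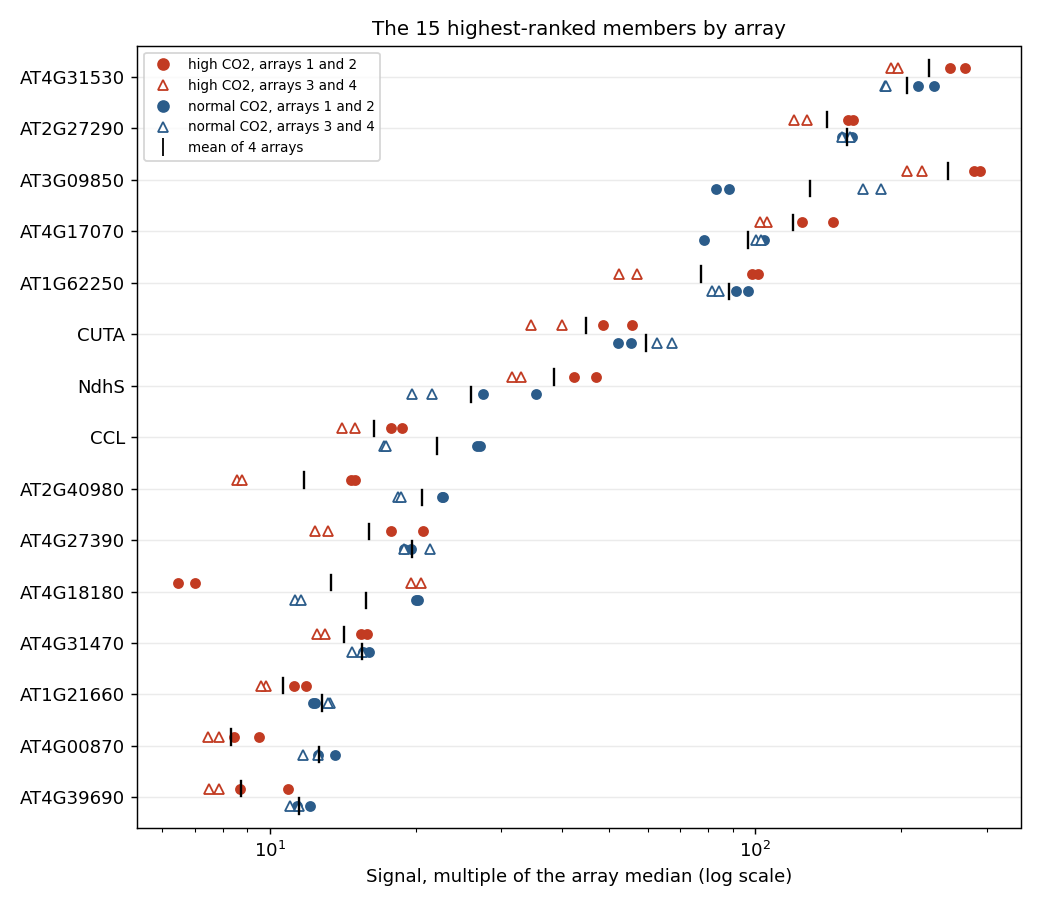
The 15 members with the highest normal CO2 signal, 1 row each, with the signal of every array (multiple of the array median, log scale); red marks are high CO2 and blue marks normal CO2, filled circles arrays 1 and 2, open triangles arrays 3 and 4, and black ticks the mean of 4 arrays. For AT3G09850 the normal CO2 circles lie at 83.1 and 88.3 and the triangles at 166.9 and 181.4, and for AT4G18180 the 2 sets cross over.

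Judged by the spread over all 8 arrays, the most even member was AT4G16410, with 3.84, 4.18, 3.93 and 4.15 array medians at high CO2 and 4.22, 4.24, 4.3 and 4.39 at normal CO2. The coefficient of variation (CV, the SD as a percentage of the mean) was 4.42%, and 11% as deposited. On the scale of array medians all 4 high CO2 arrays of AT4G16410 still lay below all 4 normal CO2 arrays, at a ratio of 0.939. As deposited its sets gave ratios of 0.793 and 1.14, so this order did not hold on that scale. AT4G27700 followed with a CV of 8.05%, and AT3G50130 with 8.57%. The signals of AT3G50130 were 3.15, 3.34, 3.38 and 3.81 at high CO2 and 3.21, 3.8, 3.01 and 3.49 at normal CO2. There the groups overlapped, and the ratio was 1.01. As deposited, the CV of AT3G50130 was 17.2%, and the lowest of all members was the 4.99% of AT2G11270.

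Next came AT4G31470 (CV 9.03%), AT3G57630 (9.76%), AT2G27290 (10.1%), chr31 (10.2%), AT2G38550 (11.6%), AT2G11270 (11.8%) and AT1G21660 (12%). Their ratios ran from 0.83 to 1.11. Even members were found at all brightness levels, since the normal CO2 means of these 10 ran from 3.38 to 154.2. In all, 31 of the 90 members had a CV under 20% over the 8 arrays, and the median was 26.3%. As deposited 36 did, and after quantile normalization 33.

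A symbol beyond the identifier was given for 17 of the 90 members (18.9%), and for 56 of the 459 single-gene probes below the signal threshold (12.2%). The 17 are described below under chloroplast proteins, enzymes, and regulators of signalling and transcription. This is an order for reading, and not all 17 fit it. Over the 17, the ratio ran from 0.505 for LPA19 to 1.61 for ATSIK, and 6 of the 17 had no overlap between groups. Of the 2932 probes above 0 on all arrays 36.5% had none.

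NdhS (also CRR31), a subunit of the chloroplast NADH dehydrogenase-like complex that takes part in cyclic electron flow around photosystem I, had the seventh highest signal. It was at 42.3, 46.9, 31.5 and 33 array medians at high CO2, against 27.5, 35.3, 21.6 and 19.6 at normal CO2. The ratio was 1.48 (1.42 and 1.57 in the sets), and the fitted log2 fold change was 0.46 with a 95% interval of -0.09 to 1.00. Fitted apart on quantile normalized values, arrays 1 and 2 gave 0.13 for NdhS and arrays 3 and 4 gave 0.78. On that scale its set ratios were 1.09 and 1.72, so how far the sets of NdhS differed depended on the scale. LPA19, a relative of Psb27 that helps to assemble photosystem II, was at 2.56, 2.79, 2.06 and 1.95 at high CO2, against 4.43, 4.51, 4.81 and 4.79 at normal CO2. The means were 2.34 ± 0.403 at high CO2 and 4.64 ± 0.195 at normal CO2 (SD, n = 4 each). With no overlap and a ratio of 0.505, it was the member nearest to the lower bound, and quantile normalization took it outside (0.488). FZL, a dynamin-like protein that shapes thylakoid membranes, had 7.79, 8.76, 4.87 and 4.75 at high CO2, against 3.67, 4.09, 5.52 and 5 at normal CO2. The high CO2 arrays of FZL lay above the normal ones in arrays 1 and 2 (ratio 2.13) and below them in arrays 3 and 4 (0.915; 1.13 as deposited).

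Among the enzymes, CYN (cyanase, which breaks down cyanate with bicarbonate) had 12.3, 11.9, 6.69 and 6.86 at high CO2, against 7.86, 6.4, 7.74 and 7.86 at normal CO2. The sets gave CYN ratios of 1.7 and 0.869 (1.42 and 1.07 as deposited). PPDK (pyruvate orthophosphate dikinase, which makes phosphoenolpyruvate from pyruvate) had 2.41, 1.67, 3.13 and 3.18 at high CO2, against 3.5, 3.39, 2.73 and 2.6 at normal CO2, with ratios of 0.592 and 1.18 in the sets. LpxA, named after the bacterial enzyme that begins lipid A synthesis, had 3.98, 3.2, 2.68 and 3.1 at high CO2, against 4.13, 4.54, 5.03 and 4.38 at normal CO2. All its high CO2 arrays lay below the normal ones, at a ratio of 0.717.

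AT-HF (also HISN4), an enzyme of histidine synthesis, had 0.753, 1.1, 3.35 and 3.36 at high CO2, against 3.76, 3.58, 4.43 and 4.42 at normal CO2. High CO2 arrays 1 and 2 stood far below the rest, and its ratio of 0.529 joined 0.252 in that set with 0.758 in arrays 3 and 4. DRT101, named for the DNA damage tolerance it gave to bacteria, had 3.85, 3.16, 4.32 and 5.03 at high CO2, against 6.37, 5.71, 8.58 and 8.37 at normal CO2. DRT101 had no overlap, with ratios of 0.581 and 0.551 in the sets (0.486 and 0.678 as deposited). CUTA, described above, is named after a bacterial protein of metal tolerance.

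Among the regulators, XERICO, a RING finger protein that raises abscisic acid levels when in excess, had 10.4, 10.1, 8.03 and 8.68 at high CO2, against 7.4, 7.09, 8.2 and 9.42 at normal CO2. The ratio of XERICO was 1.16, with 1.41 and 0.949 in the sets (1.18 and 1.17 as deposited). CML30, a calmodulin-like calcium sensor, had 7.34, 7.41, 8.78 and 10.3 at high CO2, against 5.75, 6.97, 7 and 6.84 at normal CO2. Its groups did not overlap on the scale of array medians, at a ratio of 1.27. The sets gave CML30 ratios of 1.16 and 1.38 (0.97 and 1.69 as deposited, 0.936 and 1.39 after quantile normalization). The fitted log2 fold change was 0.20 with a 95% interval of -0.26 to 0.65. CCL (CCR-like), whose mRNA follows the circadian clock, had 17.8, 18.7, 14.1 and 15 at high CO2, against 27.1, 26.7, 17.2 and 17.4 at normal CO2. The overlap came from normal CO2 arrays 3 and 4, and the ratio was 0.742. No label gives the hour of sampling.

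The chromatin remodelling gene chr31 had one of the ratios closest to 1, at 0.991, with 4.8, 5.39, 3.78 and 4.31 at high CO2, against 4.76, 4.58, 4.36 and 4.73 at normal CO2. AGL103, a MADS-box gene, was at a ratio of 1.06, with 1.34 and 0.801 in the sets (1.12 and 0.985 as deposited). LAS (Lateral Suppressor), a GRAS protein needed for the formation of side shoots, had 1.37, 1.74, 1.94 and 2.02 at high CO2, against 2.93, 2.68, 2.87 and 2.85 at normal CO2. All its high CO2 arrays lay below the normal ones (ratio 0.625). ATSIK had 7.96, 7.66, 6.57 and 5.83 at high CO2, against 3.02, 2.88, 6.4 and 5.14 at normal CO2, with a ratio of 2.65 in the first set and 1.07 in the second. MAMI, listed as membrane-associated and mannitol-induced, had a ratio of 0.879.

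**Figure D3:**
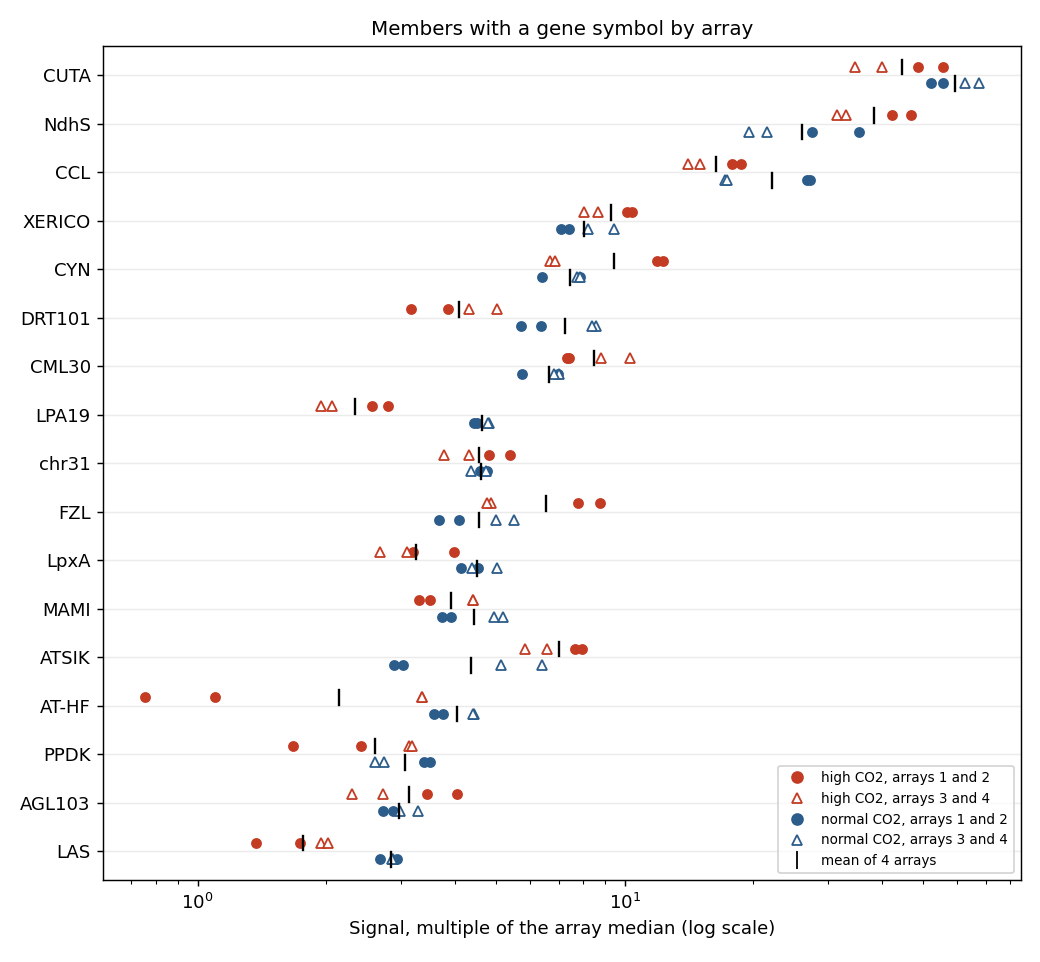
The 17 members with a gene symbol, 1 row each in order of normal CO2 signal, with the signal of every array (multiple of the array median, log scale); red marks are high CO2 and blue marks normal CO2, filled circles arrays 1 and 2, open triangles arrays 3 and 4, and black ticks the mean of 4 arrays. LPA19, LAS, LpxA and DRT101 have all red marks left of the blue ones, and for AT-HF the red circles lie at 0.753 and 1.1.

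The 5 members of highest ratio were AT3G09850, described above, AT5G52810 (1.86), AT1G17160 (1.8), AT3G61870 (1.78) and AT5G06790 (1.61). In all 5 the high CO2 arrays lay above the normal ones without overlap. AT3G61870 had signals of 4.77, 5.54, 5.06 and 5.62 at high CO2, against 2.81, 3.5, 2.85 and 2.63 at normal CO2. The 5 of lowest ratio were LPA19, AT-HF, AT5G11550 (0.53), AT4G16610 (0.538) and AT2G46630 (0.547), again with no overlap in any on the scale of array medians. For AT-HF the sets as deposited gave ratios of 0.211 and 0.933. A choice by extreme ratio favours groups without overlap, and 36.5% of the 2932 probes above 0 on all arrays had none. AT4G16610 had 1.55, 1.58, 1.55 and 1.5 at high CO2, against 2.54, 2.38, 3.26 and 3.31 at normal CO2. All high CO2 arrays of AT4G16610 lay below the lowest normal one. Their CV was 2.35% on this scale and 13.5% as deposited.

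More members had a ratio below 1 than above it, 59 against 31, and the median ratio was 0.874. Over all 2932 probes above 0 on all arrays the median ratio was 0.963, and 52.7% were below 1. Members were picked by a high normal CO2 mean, the denominator of the ratio, and this favours ratios below 1. The split is thus not independent of the rule. With the values as deposited the members' median was 0.893 and the split 60 to 30, and after quantile normalization it was 0.832 and 64 to 26. A ratio between 0.8 and 1.25 was found for 36 of the 90, while 22 were below 0.67 and 11 above 1.5.

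A mean over 4 arrays can hide array sets that differ, and the ratio was therefore formed within each set. It stayed between 0.5 and 2 in both sets for 64 of the 90 members (71.1%). The rule favours this, and of the 2246 other probes above 0 that met the same bounds on the overall ratio 72.5% did so. On the values as deposited 70 members did, and after quantile normalization 66. In arrays 1 and 2 the ratio was at or above 2 for 7 members and at or below 0.5 for 11, and in arrays 3 and 4 for 2 and 8 members. The sets lay on the same side of 1 for 62 members (68.9%, against 68.8% of all probes above 0) and on opposite sides for 28.

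For a pair of members the mean ratio was near 1 while the sets lay past the bounds in opposite directions. AT2G46300 had 6.45, 5.83, 13.1 and 15.7 array medians at high CO2, against 14.6, 16.9, 3.42 and 3.85 at normal CO2. Arrays 1 and 2 gave a ratio of 0.389 and arrays 3 and 4 one of 3.97, against 1.06 over all arrays. AT2G35450 had 2.14, 2.56, 3.7 and 2.92 at high CO2, against 4.13, 5.31, 1.39 and 1.64 at normal CO2, with ratios of 0.497 and 2.18 and 0.907 over all arrays. Close to them were AT4G18180, with 6.46, 7.02, 20.5 and 19.5 at high CO2, against 20, 20.2, 11.3 and 11.6 at normal CO2, and AT2G36480, with ratios of 0.35 and 1.28. For each of these 4, arrays 1 and 2 gave a ratio below 0.5. For AT2G46300 and AT2G35450 only the mean over both sets lay inside the bounds, whereas arrays 3 and 4 of AT4G18180 (1.74) and AT2G36480 lay inside by themselves. As deposited, AT4G18180 too lay past both bounds (0.281 and 2.15 in the sets). AT2G46300, AT2G35450 and AT2G36480 are named because of these values. What made the sets differ was not tested.

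**Figure D4:**
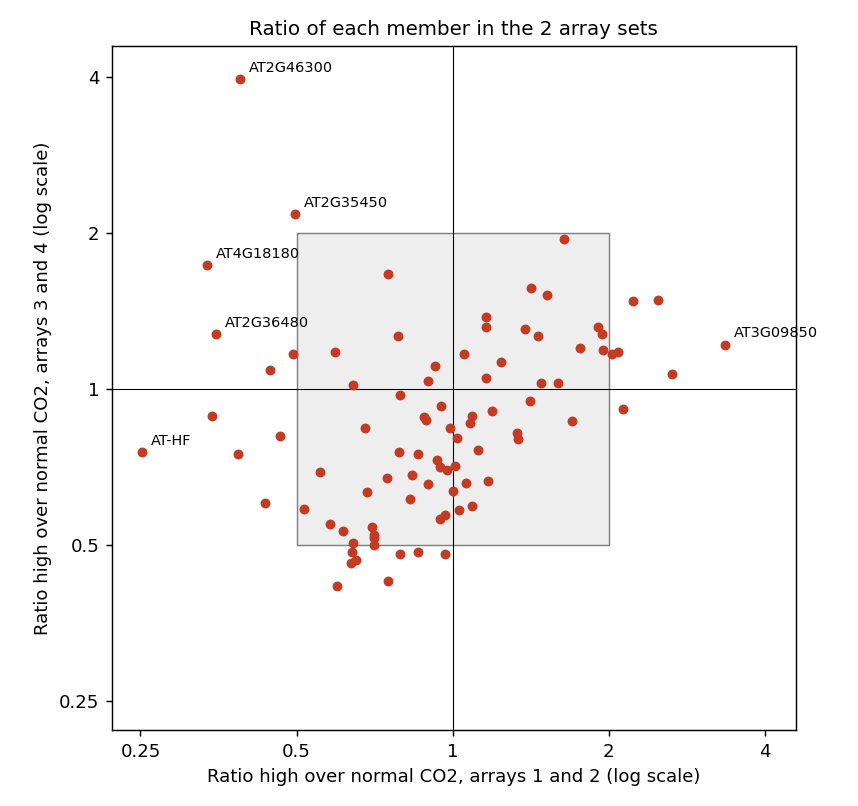
Each point is a member, with its ratio of means, high over normal CO2, in arrays 1 and 2 on the x axis and in arrays 3 and 4 on the y axis (both log scale); the shaded square spans 0.5 to 2 on both axes. Of the 90 members 64 lie in the square, and AT2G46300 (0.389 and 3.97) lies farthest from it.

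The division by the array median also moved with the sets. High CO2 arrays 3 and 4 had medians of 0.28 and 0.272, against 0.215 and 0.212 for high CO2 arrays 1 and 2. Within the high CO2 group 62 of the 90 members were lower in arrays 3 and 4 than in arrays 1 and 2 after the division, and 33 were with the values as deposited. At normal CO2, with medians of 0.221 and 0.227 in arrays 3 and 4, the counts were 45 and 62. The part of the scaling in the set differences was not tested.

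In the limma fit over 3154 probes (log2 values, quantile normalized, two-sided, Benjamini-Hochberg adjustment, threshold 0.05) 32.6% were called, 14.3% higher and 18.3% lower at high CO2. Among the 90 members, all of which were tested, 33 were called, 7 higher and 26 lower. With the values as deposited, 28 members were called, 11 higher and 17 lower. Over all probes that scaling gave 499 higher and 387 lower, against 452 and 577 after quantile normalization. The rule used this contrast, so the counts describe the members and nothing more. With arrays 1 and 2, and 3 and 4, of a group as a random block the fit called 12 members and 14.0% of all probes. Without normal CO2 replicate 1, 21 of the 90 members were called, and 729 of all 3154 probes. On the scale of array medians 39 members had groups that did not overlap (36.5% of the 2932 probes did not), and 51 had groups that did. Members inside the 2-fold bounds thus include some whose groups are apart.

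The fit also gives an interval for each difference. The 95% interval of the log2 fold change lay wholly between -1 and 1 for 51 of the 90 members, against 34.0% of all tested probes. The rule bounds the ratio of the members' group means, so this gap is not independent of the rule. Of the 2246 other probes that met the same bounds on the ratio, 44.9% had such an interval. For the other 39 members it reached past a doubling or a halving, so a 2-fold difference was not outside the interval for them. In AT-HF (-1.24), AT2G40980 (-1.07), LPA19 (-1.05), AT2G46630 (-1.02) and AT5G11550 (-1.02) the fitted log2 fold change itself lay below -1. The median half-width of the interval was 0.393 for the members, 0.56 for those 2246 probes and 0.608 for all tested probes. With the random block, 40 members had an interval between -1 and 1, and 22.2% of all tested probes did. The narrowest interval among the members named here was that of AT1G21660 (log2 fold change -0.42, interval -0.69 to -0.15), and the widest was that of AT2G46300 (0.22, interval -1.38 to 1.82).

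**Figure D5:**
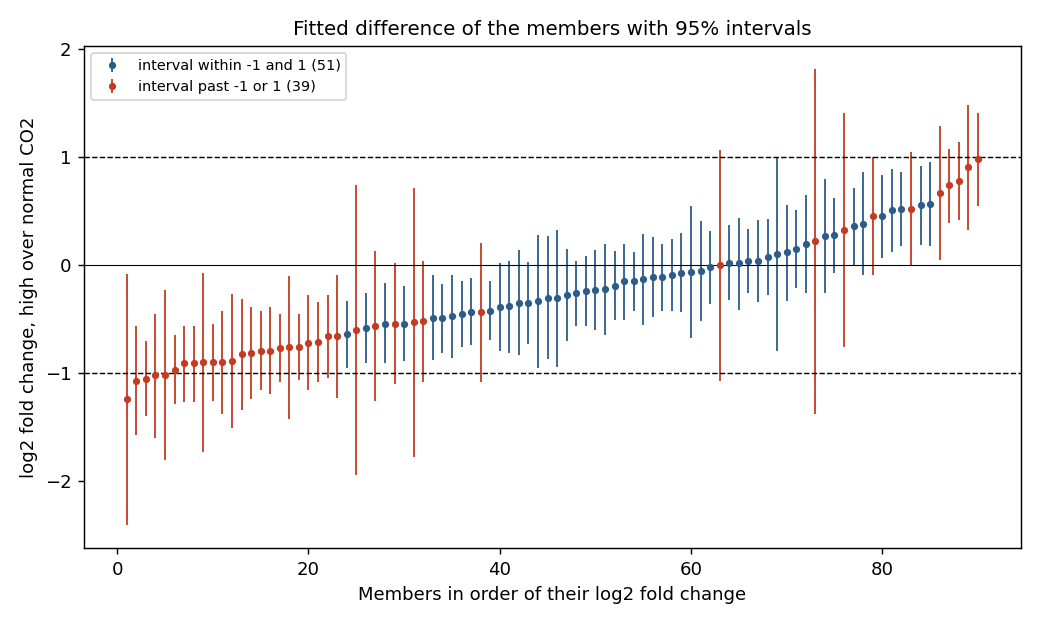
Fitted log2 fold change, high over normal CO2 (y axis), of the 90 members in order of size (x axis), with 95% intervals from limma as vertical lines; dashed lines mark -1 and 1. Blue intervals lie within these bounds (51 members) and red ones reach past them (39).

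The rule did not use the spread within a group directly. It did use the normal CO2 mean, by which the SD is divided, and the ratio of group means. Comparisons of spread with other probes are thus not independent of the rule. The median CV of the members was 17.2% over the 4 high CO2 arrays and 12.5% over the 4 normal CO2 arrays. For the 459 single-gene probes below the signal threshold it was 28.4% and 22.3%, in the same order of groups, and for all probes above 0 it was 25% and 19.2%. By brightness, it was 16.5% and 14.8% in the 47 members under 5 array medians, and 17.4% and 11.7% in the 6 above 40. The order of the groups depended on the scale in some of these 6. As deposited, their high CO2 CVs ran from 2.31% to 19.8%. The SD of AT4G31530 was then 2.36 at high CO2 and 9.45 at normal CO2, against 39.9 and 24.2 on array medians. For AT1G62250 it stayed larger at high CO2 (3.61, against 3.22, as deposited). On the scale of array medians, arrays 3 and 4 differed at least 2-fold from arrays 1 and 2 within the high CO2 group in 6 members (6.67%, against 12.7% of all probes above 0). Within the normal CO2 group they did in 5 members (5.56%, against 11.2%). AT2G46300 and AT1G50880 did in both groups.

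Features that the rule did not touch were few, because the gene table gives little beyond names and lengths. All 90 genes are listed as protein coding. Their length in the annotation of TAIR10.1 ran from 531 bases to the 6365 of PPDK, with a median of 1920, against 2220 for the single-gene probes below the signal threshold. Gene length and normal CO2 signal had a Spearman correlation of 0.201 across the 90 members. By locus identifier, chromosomes 1 to 5 held 19, 19, 21, 25 and 6 members. Chromosome 5 thus held 6.67% of the members, against 22.3% of the 459 probes below the threshold, and chromosome 4 held 27.8%, against 17.7%. The share was also low before the ratio was applied, with 7 of the 115 bright probes on chromosome 5. The members on it were AT5G06790, DRT101, MAMI, AT5G10920, AT5G11550 and AT5G52810.

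The 10 lists of functions, matched by symbol and synonym, held 51 single-gene probes. Of the 49 tested, 6 were called higher, 9 lower and 34 neither, while 32.6% of all probes were called. They took in 4 members, namely PPDK under carbohydrates, NdhS under redox (through the word dehydrogenase in its synonym), MAMI under transport and CML30 under signalling. No list held 3 members. Since 73 of the 90 carry no symbol and could hardly match a list, this says little about functions they may share.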

How the data were processed

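The deposited values are relative spot intensities per the file's values, on a linear scale from 0 to 100. How the authors scaled them, treated the background or made the arrays is not given in the sources used here. Probes were named from the platform annotation through gene identifiers of TAIR10.1. It gave 1 gene to 692 probes (690 matched the gene table), several to 870 and no name to 1877. CHLP, FTRB, PRXIIE and KAR, names absent from that table, were matched by locus. No coordinates or sequences are given.

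Signals were divided by the array median over all probes (Python 3.11.15, pandas 2.3.3). For the fit, zeros were treated as missing, 3 values per group were required, and log2 intensities were quantile normalized and compared with limma 3.58.1 in R 4.3.3. A trial of the fit on simulated data drew independent noise for each array. It cannot show how the fit behaves where arrays of a set resemble each other, as they do here. Apart from the fits with a block, p-values and intervals treat the 8 arrays as independent. All measure the spread between arrays, which may be technical. Their number limits the precision.

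The members and lists were chosen with earlier results of these data known. Genes named are the 15 brightest, the 10 of lowest CV, the 5 of highest and 5 of lowest ratio, and the 3 brightest of any function list with 3 members, of which there was none. Members with a symbol, and others as stated, were added after their values were seen. Alternatives covered scaling, floors, filters, blocks, array sets and each array left out. Array set ratios and CVs on other scales, and the 2246 probes within the same ratio bounds, were added after seeing the data.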

Additional observations from a re-analysis of the deposited data

Results flagged for a closer look

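Among 84 groups of 4 arrays (42 named members in both groups), 3 had an array far from the other 3 on the log2 scale, where chance gives about 4.2, or 1 in 20. All 3 were at normal CO2. For AT4G17070 the gap of replicate 2 to its nearest neighbour took up 0.873 of the range (78.6 array medians, against 100.6 to 104.2 in the others). For CYN, replicate 2 gave 0.927 (6.4, against 7.74 to 7.86). For CML30, replicate 1 gave 0.889 (5.75, against 6.84 to 7).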

How the results depend on the processing

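The list of 90 was set mainly by its own cut-offs: the top 10% gave 42 members, the top 30% gave 140, and bounds of 0.67 and 1.5 gave 57. Other scalings gave 90 to 92, of which 87 to 89 were among the 90. With 1 array omitted the list held 89 to 93, with 85 to 89 shared. Arrays 1 and 2 alone gave 82 (66 shared), and arrays 3 and 4 alone 87 (74 shared). The fit called 1029 probes, 442 with array pairs as a random block and 0 with pairs averaged (775 at an unadjusted p under 0.05). Leaving out each array gave 729 to 912. Of the 33 members called, the random block left 12. Averaging pairs left 0 in limma, and 12 had an unadjusted p under 0.05. Leaving out each array gave 21 (without normal CO2 replicate 1) to 28. Averaging leaves 4 values, and the cause of the other losses was not tested. As deposited, 39.3% of the members' calls were higher, against 21.2% after quantile normalization, where all probes together had a median of -0.16 (log2). With a pseudocount or a floor that median was -0.06, and the members' own was -0.26 and -0.28. The median CV of 26.3% ran from 24.0% to 27.3% when 1 array was left out. Of 798 values of the 42 named members under these alternatives, 61 moved by more than the replicate SD, 78 lost a call and 24 gained one. No call of the limma fit given above was reversed. AT4G18180, not called in that fit (log2 fold change -0.53), was called lower in arrays 1 and 2 alone (-1.98) and higher in arrays 3 and 4 alone (0.92). Equal replicate numbers were treated as no pairing, because deviations from the group means correlated between them by 0.0305, 0.0856, 0.124 and 0.0523, not all over 0.1. A replicate block called 845 probes and 22 members.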
